A study of Mus musculus with 31 samples.

Results

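Epidermal keratinocytes line the skin in which these melanomas were grown, and 39 of their genes were followed through bulk RNA of whole tumors. The members were listed by name and taken as the genes of the count table whose symbol equals 1 of the 39 names, of 39179 genes in all. By role they are 4 genes of the basal layer, 6 of the suprabasal layers, 5 wound and follicle keratins, 8 genes of the desmosome, 9 of the cornified envelope, and 7 regulators, proteases and others. In the epidermis, basal cells divide, leave the basement membrane and exchange the keratins *Krt5* and *Krt14* for *Krt1* and *Krt10*. Their desmosomes anchor the keratin filaments, and in the outermost layers proteins such as loricrin and filaggrin build the cornified barrier. Injured or inflamed epidermis switches on *Krt6a*, *Krt6b*, *Krt16* and *Krt17* instead, and topical glucocorticoids, used against inflammatory skin disease, thin the epidermis and slow its proliferation.

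The study asked how a topical glucocorticoid (GC) acts on melanoma and whether the receptor in the cancer cells is needed. The parental line comes from a melanoma of C57BL/6 mice in which an inducible *Nras* mutation is switched on in melanocytes, and GR KO is its derivative in which *Nr3c1*, the gene of the glucocorticoid receptor (GR), was edited with a CRISPR/Cas9 ribonucleoprotein. The methods speak of single clones, and the library names point to 1 clone. Tumors of either line were grown intradermally in the right flank of wild-type C57BL/6 mice, so that skin, stroma and immune cells kept the receptor in all 4 groups. The GC was clobetasol propionate, applied as a 0.05% ointment 3 times weekly to the tumor and the skin around it, and control mice received a cetraben cream. No group is described as given the ointment base alone, so drug and vehicle cannot be told apart in any GC effect in tumors. The 4 groups are parental control, parental GC, GR KO control and GR KO GC, with 5 tumors each from separate mice, and whether overlying skin was trimmed from the tumors and the age of the mice are not given in the sources used here. The same lines were cultured for 48 hours with DMSO (3 cultures of each line) or with clobetasol propionate (2 parental and 3 GR KO cultures), at 10 µM by the treatment label and 1 µM by the library name. Nothing in the labels says that the cultures were separate, so p-values for them may measure technical spread alone.

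The libraries hold 3′ tags of messenger RNA, with 15528066 to 26386770 counted reads in tumors and 14441166 to 22463188 in cultures. Tumors of 1 group, or cultures of 1 group, differ beyond the noise of sampling reads, with a mean chi-square per gene of 8.60 to 435 over 50 pairs where that noise alone gives 1. Levels are given as CPM (counts scaled to a common library total) after TMM scaling. A gene is called when edgeR's quasi-likelihood test gives a Benjamini-Hochberg (BH) adjusted p under 0.05 over all genes tested and a fold change of at least 1.5. Fold changes are on the log2 scale, with standard errors (SE). *Nr3c1* was at 63.4, 57.1, 44.9, 55.6 and 52.2 CPM in parental control tumors and 53.4, 24.4, 48.2, 37.3 and 49.8 CPM with GC. GR KO tumors had 20.7, 27.3, 31.4, 31.8 and 23.5 CPM in controls and 47.9, 21.7, 58.0, 32.5 and 49.4 CPM with GC. In culture it was at 33.2, 30.0 and 35.6 CPM in parental cells with DMSO and 39.5 and 33.4 CPM with GC, and GR KO cells had 24.8, 21.0 and 16.4 CPM with DMSO and 20.9, 22.5 and 13.1 CPM with GC. These 3′ tags lie outside the edited stretch and do not check the knockout.

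The cultures show the background of the tumor cells themselves. Of the 39 members, 17 had 0 counts in all 11 cultures, 26 had at most 3 counts in every culture, and 3 exceeded 3 counts in all 11. Summed over the 39, the cultures held 21.6 to 35.2 CPM, with *Sfn*, a 14-3-3 protein of stratified epithelia, the most abundant. In tumors the sum ran from 4329.8 to 18059.6 CPM, and 35 members exceeded 3 counts in all 20. The label melanoma is poorly marked by pigment genes: the 8 melanocyte lineage markers summed to 3.10 to 11.9 CPM in cultures, with *Mitf* the most abundant and 5 to 7 of the 8 at 0 counts. Of the members, 7 could be tested in culture. None of the 7 was called by edgeR with GC in parental cultures (0.878% of 12525 genes called), where 1 had p under 0.05 (1062 of all genes) and DESeq2 called 0. None was called in GR KO cultures either, where edgeR called 0% of the genes, 1 member had p under 0.05 (237 of all genes) and DESeq2 called 0.

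Averaged over the genotypes, GC lowered 4 wound keratins and raised *Krt1* and *Krt10* of the 6 suprabasal members, loricrin and filaggrin. Of these genes only *Krt6b* was called in each genotype on its own. In the average, edgeR called 16 of 38 members (4.28% of all genes), 5 of them higher (1.95% of all genes) and 11 lower (2.32% of all genes). Higher were *Krt15*, *Krt1*, *Krt10*, *Lor* and *Flg*. The lower ones were *Krt14*, 4 of 5 wound and follicle keratins, *Dsp*, *Sprr1a*, *Sprr1b*, *Trim29*, *Tmprss11g* and *Fcgbp*. The median over the 38 was -0.22 against 0.02 over all genes. Of the members 20 had p under 0.05 (3143 of all genes), and DESeq2 called 16 (945 of all 15919 genes). With the number of detected genes as a covariate 12 were called (701 of all genes), 11 of them among these 16, and *Krt14*, *Krt6a*, *Dsp*, *Sprr1b* and *Trim29* were not. With a fold change of at least 2, the count was 10. *Sprr3* was at 0 counts in all 20 tumors and was not tested. In bulk RNA, a changed share of keratinocytes in a sample and a changed amount of a gene's RNA in each of them cannot be told apart. The paper reports that GC shrank parental tumors and that GR KO tumors did not respond to it. Tumor size may thus differ between the groups, and its part in the members' results was not tested.

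In parental tumors 6 of 38 members were called (0.779% of all genes), 2 higher (0.433% of all genes) and 4 lower (0.345% of all genes). *Krt15* and *Lor* rose, and *Krt6b*, *Sprr1a*, *Tmprss11g* and *Fcgbp* fell. The median of the 38 was -0.15 against 0.00 over all genes. Of the members 14 had p under 0.05 (2249 of all genes), and DESeq2 called 9 (376 of all 15919 genes). Control and GC tumors did not overlap in 7 members, against 4.21% of all genes: *Krt15*, *Sbsn* and *Lor* lay higher with GC, and *Krt6b*, *Krt16*, *Tmprss11g* and *Fcgbp* lower. Much of this rests on parental control tumor 5: without it 2 members were called, *Krt15* and *Fcgbp*, and the median was 0.12.

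In GR KO tumors, where by design only host cells carry the receptor, 12 of 38 members were called (6.42% of all genes), 3 higher (2.71% of all genes) and 9 lower (3.71% of all genes). *Krt1*, *Krt10* and *Flg* rose, and *Krt14*, *Krt6b*, *Krt16*, *Krt17*, *Dsp*, *Sprr1a*, *Trim29*, *Klk7* and *Fcgbp* fell. The median was -0.47 against 0.05 over all genes. Of the members 17 had p under 0.05 (3893 of all genes), and DESeq2 called 13 (1756 of all 15919 genes). The groups did not overlap in 7 members, against 5.08% of all genes: *Krt1* and *Flg* were higher with GC, and *Krt6b*, *Krt17*, *Dsp*, *Trim29* and *Fcgbp* lower. The count was 7 without any 1 of GR KO control tumors 1 and 2 and GR KO GC tumors 1 and 5. GR KO control tumors other than 4 also yielded few detected genes: after all tumors were drawn down to 15528066 reads, they had 13399, 14794, 15142, 16780 and 14265 genes, and the other 15 tumors had 15155 to 16916. With that number as a covariate, 6 members were called (217 of all genes), all among these 12, *Krt1*, *Krt10*, *Krt17*, *Dsp*, *Trim29* and *Fcgbp*. Its part in the other calls was not tested further. The 2 GC effects share no samples, and 3 members, *Krt6b*, *Sprr1a* and *Fcgbp*, were called in both, as were 37 of all 15919 genes.

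**Figure D1:**
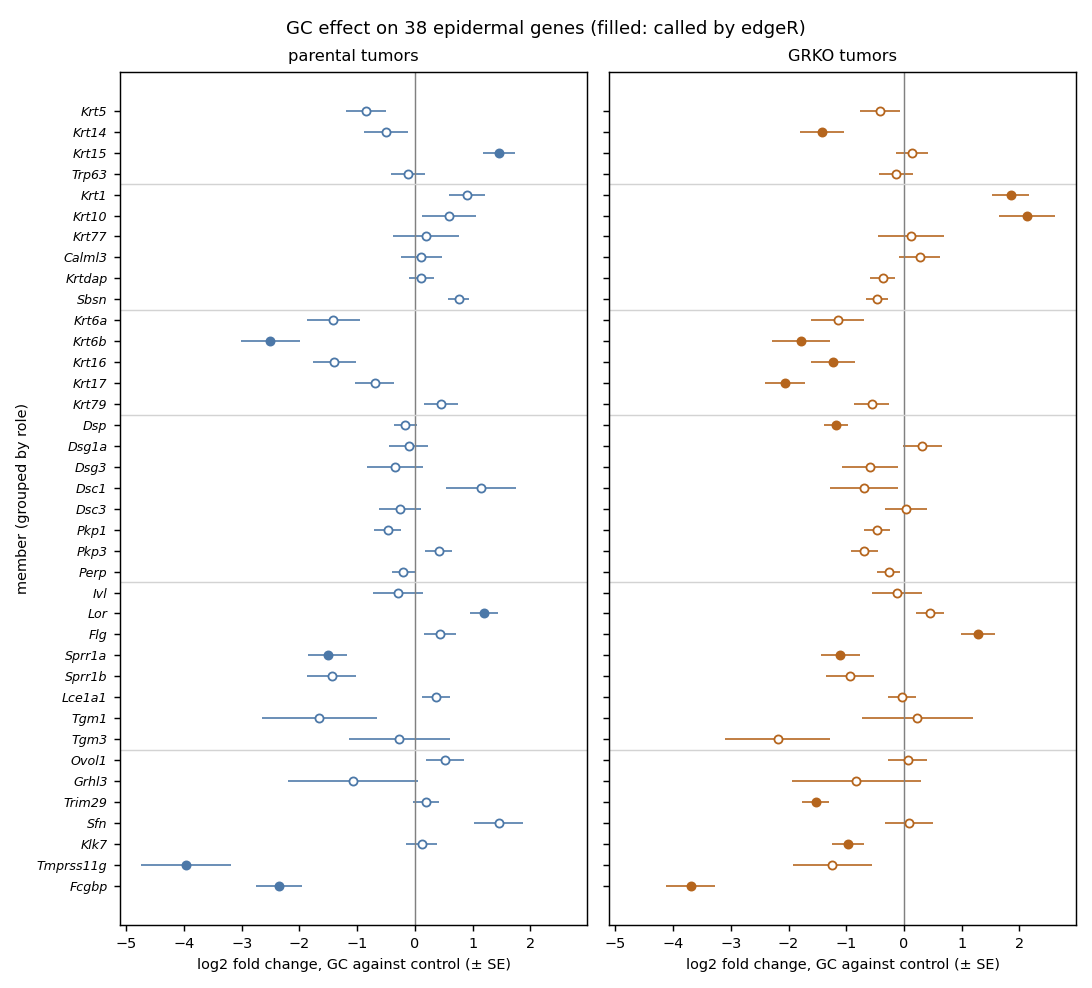
Log2 fold change of each tested member, GC against control, in parental (left) and GR KO (right) tumors, with bars for the standard error, 5 tumors per group. Filled points were called by edgeR, 6 on the left and 12 on the right.

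*Krt6a*, *Krt6b*, *Krt16* and *Krt17* mark wounded or hyperproliferating epidermis and the follicle's companion layers. Averaged over genotypes, 4 of these 5 keratins fell and 0 rose, with a median of -1.31 against 0.02 over all genes. *Krt6b* fell in both genotypes. *Krt6b* stood at 604, 869.8, 1328, 677 and 5196 CPM in parental control tumors and at 177, 285, 242, 265 and 559 CPM with GC. For *Krt6b*, GR KO controls had 3770.2, 5245, 1983, 1579 and 3954 CPM and GR KO GC tumors 451, 746, 1061, 1477 and 1051 CPM. In neither genotype did the groups overlap, although parental control tumor 5 stood far above the other 4. *Krt6b* fell by 2.50 (SE 0.51, adjusted p 0.0149 in edgeR with BH) in parental tumors and by 1.79 (SE 0.50, adjusted p 0.0338) in GR KO tumors. In parental tumors the call ended without parental control tumor 5 or GC tumor 4 (adjusted p up to 0.0822), and the fold change was -1.50 without control tumor 5. The call also ended with the compared groups fitted alone (Krt6b: GC effect in parental tumors, 0.0543). The GR KO call ended without any 1 of control tumors 1, 2 and 5 and GC tumors 1, 2, 3 and 5 (up to 0.0930). Averaged, *Krt6b* fell by 2.15 (SE 0.36, adjusted p 0.00104), a call that no left-out tumor ended.

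Its close relative *Krt6a* behaved less uniformly. *Krt6a* stood at 274, 359.9, 749.6, 217 and 1819 CPM in parental control tumors and at 134, 412, 202, 257 and 279 CPM with GC. For *Krt6a*, GR KO controls had 1428, 2147, 1012, 731 and 1420.0 CPM and GR KO GC tumors 269, 570.4, 618, 867 and 708 CPM. Parental control tumor 5 was again the highest of its group, and the groups overlapped in both genotypes. The *Krt6a* GC effect was -1.41 (SE 0.46, adjusted p 0.165) in parental and -1.15 (SE 0.45, adjusted p 0.121) in GR KO tumors, neither called by edgeR after BH. Averaged, it fell by 1.28 (SE 0.32, adjusted p 0.0221), and without parental control tumor 5 the adjusted p was 0.0518. *Krt16* encodes the type I partner of *Krt6a* in stressed epidermis. *Krt16* stood at 300.4, 269.5, 332, 261 and 878 CPM in parental control tumors and at 63.2, 207, 146, 176 and 185 CPM with GC. For *Krt16*, GR KO controls had 1068, 952, 536, 432 and 673 CPM and GR KO GC tumors 134, 224, 457, 409 and 334 CPM. All 5 parental GC tumors lay below all 5 parental controls, while in GR KO tumors GC tumor 3 reached above control tumor 4. *Krt16* fell by 1.31 when averaged (SE 0.27, adjusted p 0.00538 in edgeR) and by 1.23 in GR KO tumors (adjusted p 0.0488). In parental tumors its effect was -1.39 (adjusted p 0.0825), called by DESeq2 (adjusted p 0.00914). The GR KO call is a borderline one, ended by leaving out 15 of the 20 tumors 1 at a time (adjusted p up to 0.132), namely parental controls 1, 2, 3 and 4, parental GC 3, 4 and 5, GR KO controls 1, 2, 3 and 5 and GR KO GC 1, 2, 3 and 5, and also by fitting the GR KO groups alone.

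*Krt17*, which follows epidermal injury and marks follicle keratinocytes, fell most clearly in GR KO tumors. *Krt17* stood at 308, 329, 402, 216 and 722 CPM in parental control tumors and at 131, 297, 159, 364 and 266 CPM with GC. For *Krt17*, GR KO controls had 1859, 1493, 626, 709 and 809 CPM and GR KO GC tumors 169, 300.2, 286, 314 and 253 CPM. Every GR KO control lay above every GR KO GC tumor, whereas parental tumors overlapped. *Krt17* fell by 2.05 (SE 0.35, adjusted p 0.00210 in edgeR with BH) in GR KO tumors, and its parental effect was -0.70 (SE 0.34, adjusted p 0.350). The difference between these effects, 1.36, was not called by edgeR (adjusted p 0.134). *Krt79*, the fifth of this role, is a keratin of the follicle opening and was called in no tumor comparison, with effects of 0.45 in parental tumors, -0.56 in GR KO tumors and -0.05 averaged. Summed, the 5 keratins reached 1619, 1920.0, 2896, 1408 and 8664 CPM in parental control tumors and 581, 1313, 835, 1236 and 1384 CPM with GC. GR KO tumors held 8310.2, 9974, 4278, 3550.0 and 6929 CPM in controls and 1121, 1947, 2497, 3129.6 and 2423 CPM with GC. By this sum controls lay above GC tumors without overlap in both genotypes. In parental tumors the gap was narrow, with the lowest control at 1408 CPM and the highest GC tumor at 1384 CPM.

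**Figure D2:**
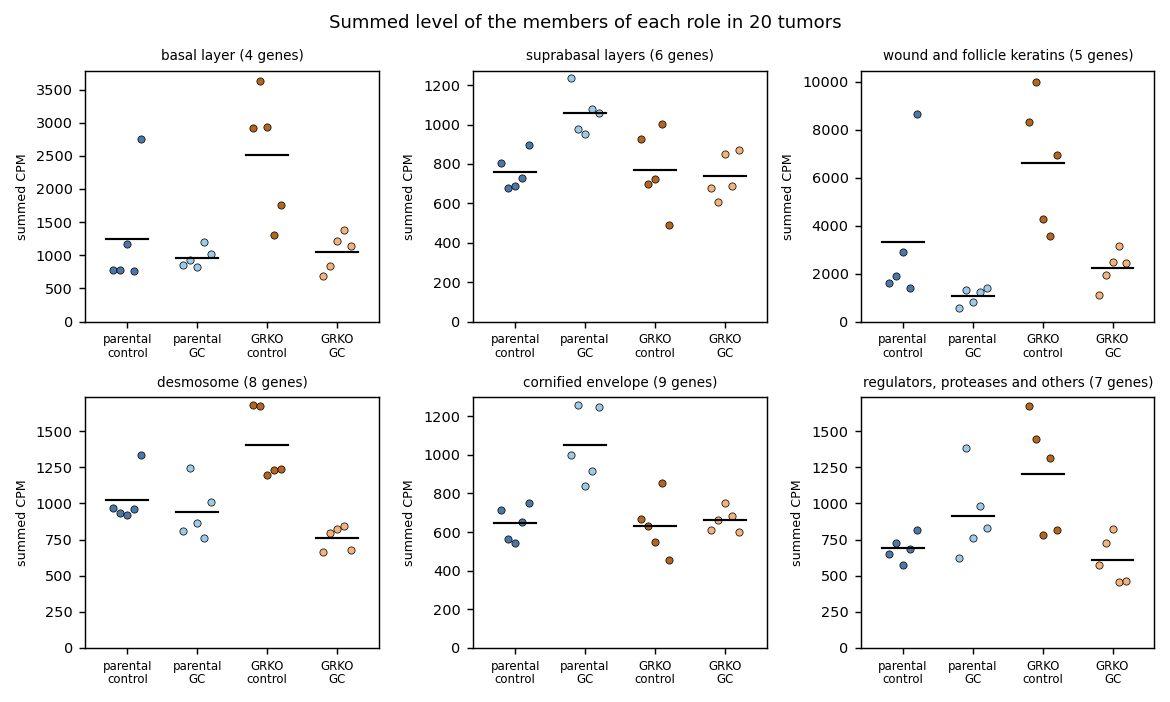
Summed CPM of the members of each role in the 20 tumors, 1 point per tumor, with a bar at the mean of each group of 5. The wound and follicle keratins of the GR KO controls reach from 3550 to 9974 CPM, and those of the GR KO GC tumors from 1121 to 3130 CPM.

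Of the suprabasal members 2 rose. *Krt1* and *Krt10* pair into the filaments of the spinous layer, and both rose with GC when averaged over genotypes. The other 4 of this role were not called by edgeR in either GC effect or their average, and in GR KO tumors *Sbsn* and *Krtdap* had effects of -0.46 and -0.37. *Krt1* stood at 135, 62.4, 84.0, 64.3 and 43.1 CPM in parental control tumors and at 210.1, 148, 138, 128 and 102 CPM with GC. For *Krt1*, GR KO controls had 22.7, 33.0, 40.0, 41.9 and 30.8 CPM and GR KO GC tumors 45.1, 95.6, 136, 173 and 156 CPM. All GR KO GC tumors lay above all GR KO controls, while parental GC tumors overlapped with parental control tumor 1. *Krt1* rose by 1.85 (SE 0.32, adjusted p 0.00234 in edgeR with BH) in GR KO tumors and by 1.37 (adjusted p 0.000749) averaged, and the parental effect was 0.90 (SE 0.31, adjusted p 0.186). *Krt10*, named after its values were seen, had low levels in GR KO controls. It stood at 28.7, 26.1, 37.2, 30.8 and 28.9 CPM in parental control tumors and at 66.8, 50.3, 41.7, 30.0 and 38.6 CPM with GC. For *Krt10*, GR KO controls had 4.32, 4.18, 9.98, 33.7 and 6.45 CPM and GR KO GC tumors 49.9, 21.5, 38.1, 28.4 and 121 CPM. GR KO control tumor 4 lay inside the GC range and the other 4 controls below it. *Krt10* rose by 2.13 (SE 0.49, adjusted p 0.0136 in edgeR) there and by 1.36 (adjusted p 0.0204) averaged, with a parental effect of 0.58 (adjusted p 0.612). The GR KO effect was 1.54 without GR KO GC tumor 5 and 3.06 without GR KO control tumor 4. Without GR KO GC tumor 5 the adjusted p was 0.0636 and 0.0507, and with the GR KO groups fitted alone the call ended as well (Krt10: GC effect in GRKO tumors, 0.0622).

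*Sbsn* encodes suprabasin, a secreted protein of differentiating layers. *Sbsn* stood at 283, 246, 217, 270.0 and 287 CPM in parental control tumors and at 385, 404, 352, 577 and 482 CPM with GC. For *Sbsn*, GR KO controls had 436, 342, 345, 371 and 212 CPM and GR KO GC tumors 233, 246, 283, 267 and 208 CPM. Every parental GC tumor exceeded every parental control, and in GR KO tumors the groups overlapped with 4 controls at the top. The parental effect was 0.76 (SE 0.19) with an adjusted p of 0.0571 in edgeR, and the GR KO effect -0.46 (SE 0.19, adjusted p 0.129), neither called by edgeR. DESeq2 called the parental effect (adjusted p 0.00561). The difference of 1.22 between them missed the threshold (adjusted p 0.0510), though DESeq2 called it too. The last bases of *Sbsn* overlap *Tmem147os* on the same strand, so its reads may be shared with that gene.

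In the basal layer the members moved apart. *Krt14*, the keratin of proliferating basal cells, fell with GC in GR KO tumors, and *Krt15*, a keratin of quiescent basal and follicle stem cells, rose in parental tumors. *Krt14* stood at 615, 589, 896, 527 and 2442 CPM in parental control tumors and at 546, 764, 596, 985 and 702 CPM with GC. For *Krt14*, GR KO controls had 2698, 3448, 2746, 912 and 1581 CPM and GR KO GC tumors 497, 660.2, 983, 1227 and 889 CPM. GR KO controls 1, 2, 3 and 5 exceeded every GR KO GC tumor and control 4 did not, while parental groups overlapped. *Krt14* fell by 1.42 (SE 0.39, adjusted p 0.0302 in edgeR with BH) in GR KO tumors, and its parental effect was -0.50 (adjusted p 0.592). The GR KO call ended without any 1 of controls 1, 2 and 3 and GC tumors 1, 2, 3 and 5 (adjusted p up to 0.0882). Averaged, it fell by 0.96 (adjusted p 0.0395), a call ended by any 1 of 13 tumors (up to 0.0952): parental control 3 and 5, parental GC 1, 2, 3 and 5, GR KO control 1, 2 and 3, and GR KO GC 1, 2, 3 and 5. The replicate block ended it too (Krt14: GC effect averaged over tumor genotypes, 0.0628).

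*Krt15* stood at 49.5, 75.1, 40.4, 58.3 and 29.2 CPM in parental control tumors and at 133, 107, 103, 166 and 184 CPM with GC. For *Krt15*, GR KO controls had 67.9, 50.8, 62.9, 92.6 and 25.9 CPM and GR KO GC tumors 76.1, 69.9, 68.6, 63.6 and 51.8 CPM. Parental GC tumors lay above all parental controls without overlap, and GR KO groups overlapped. *Krt15* rose by 1.45 (SE 0.28, adjusted p 0.00859 in edgeR with BH) in parental tumors, whichever tumor was left out. In GR KO tumors the effect was 0.14 (SE 0.27, adjusted p 0.795), and the difference of 1.32 was not called by edgeR (adjusted p 0.0998). DESeq2 called that difference (adjusted p 0.0257). *Krt5*, the partner of *Krt14*, was called in no tumor comparison, with a parental GC effect of -0.85 and a GR KO effect of -0.41, and *Trp63*, the transcription factor p63 of the epidermal lineage, had -0.12 and -0.15.

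The cornified envelope split as well, with *Lor* and *Flg* higher and *Sprr1a* and *Sprr1b* lower when averaged, 4 of 8 tested. *Lor* encodes loricrin, the main protein of the envelope. *Lor* stood at 424, 348, 252, 447 and 308 CPM in parental control tumors and at 799, 922, 664, 723 and 963 CPM with GC. For *Lor*, GR KO controls had 283, 188, 253, 545 and 215 CPM and GR KO GC tumors 416, 446, 447, 419.6 and 294 CPM. Parental GC tumors were all above parental controls, and GR KO groups overlapped because of control tumor 4. *Lor* rose by 1.19 (SE 0.24, adjusted p 0.0149 in edgeR with BH) in parental tumors, a call that ended without parental control 3 or 5 (adjusted p up to 0.0709). Its GR KO effect was 0.45 (adjusted p 0.257), and averaged it rose by 0.82 (adjusted p 0.00686). *Flg* encodes filaggrin, which bundles keratin filaments and then yields the skin's natural moisturizing factor. *Flg* stood at 102, 71.6, 50.2, 57.9 and 43.3 CPM in parental control tumors and at 65.0, 127, 48.05, 80.5 and 120.0 CPM with GC. For *Flg*, GR KO controls had 29.8, 28.3, 22.6, 52.2 and 19.4 CPM and GR KO GC tumors 59.4, 80.6, 89.3, 65.7 and 75.5 CPM. All GR KO GC values exceeded the control values, and in parental tumors they overlapped widely. *Flg* rose by 1.28 (SE 0.29, adjusted p 0.0122 in edgeR) in GR KO tumors, and the parental effect was 0.44 (adjusted p 0.508).

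*Sprr1a* and *Sprr1b* encode small proline-rich proteins that cross-link envelopes and are induced in stressed epidermis. *Sprr1a* stood at 70.8, 45.4, 101, 36.3 and 144 CPM in parental control tumors and at 19.9, 41.6, 21.1, 29.9 and 27.4 CPM with GC. For *Sprr1a*, GR KO controls had 139, 186, 128, 79.6 and 94.5 CPM and GR KO GC tumors 34.6, 39.6, 58.8, 71.2 and 88.0 CPM. The highest parental GC tumor exceeded the lowest parental control, and in GR KO tumors GC tumor 5 exceeded control 4. *Sprr1a* fell by 1.51 (SE 0.34, adjusted p 0.0318 in edgeR with BH) in parental tumors and by 1.10 (SE 0.33, adjusted p 0.0478) in GR KO tumors. The parental call ended without any 1 of control 3 and 5 and GC 1, 3, 4 and 5 (adjusted p up to 0.126). The GR KO call ended without any 1 of 11 tumors (up to 0.135): parental control 1 and 3, parental GC 1, 3 and 5, GR KO control 1, 2 and 3, and GR KO GC 1, 2 and 3. Fitting the compared groups alone ended both calls. The averaged fall of 1.31 (adjusted p 0.00221) held without each tumor. *Sprr1b*, named after its values were seen, fell by 1.19 averaged (SE 0.30, adjusted p 0.0215), and the adjusted p was 0.0530 without parental control tumor 5.

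Among the 8 desmosome members, *Dsp* alone was called by edgeR between groups. It encodes desmoplakin, which ties keratin filaments to the desmosome. *Dsp* stood at 609.6, 644, 572, 672 and 880.5 CPM in parental control tumors and at 497, 847, 571, 422 and 672 CPM with GC. For *Dsp*, GR KO controls had 1225, 1111, 756, 830.2 and 925 CPM and GR KO GC tumors 404, 479, 429, 481 and 347 CPM. All GR KO controls lay above all GR KO GC tumors, and the parental groups overlapped. *Dsp* fell by 1.18 (SE 0.20, adjusted p 0.00227 in edgeR with BH) in GR KO tumors and held without each tumor, and its parental effect was -0.17 (SE 0.20, adjusted p 0.762). The difference of 1.01 had an adjusted p of 0.0909 and was called by DESeq2. The other 7, 4 desmosomal cadherins, 2 plakophilins and *Perp*, had effects from -0.47 to 1.15 in parental tumors, and those in GR KO tumors from -0.69 to 0.31.

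Of the regulators, proteases and others, *Trim29*, a tripartite-motif protein of basal keratinocytes, was the 1 member for which edgeR called a difference of GC effects between genotypes, where DESeq2 called 7 over all roles (784 of all genes). *Trim29* stood at 204, 164, 186, 187 and 223 CPM in parental control tumors and at 183, 240.2, 144, 326 and 209 CPM with GC. For *Trim29*, GR KO controls had 619, 511, 350.0, 278 and 273 CPM and GR KO GC tumors 126, 126, 155, 161 and 136 CPM. GR KO GC tumors lay below all GR KO controls, and the parental groups overlapped. *Trim29* fell by 1.53 (SE 0.23, adjusted p 0.000994 in edgeR with BH) in GR KO tumors, and its parental effect was 0.19 (SE 0.23, adjusted p 0.757), above 0. The averaged fall of 0.67 missed the fold minimum without GR KO control tumor 1, at -0.57. *Klk7* encodes a kallikrein that sheds corneocytes by cutting their junctions. *Klk7* stood at 326, 351, 279.9, 307 and 481 CPM in parental control tumors and at 273, 614, 324, 322 and 364 CPM with GC. For *Klk7*, GR KO controls had 847, 701, 295, 668 and 431 CPM and GR KO GC tumors 274, 307, 451, 233 and 237 CPM. GR KO groups overlapped, as controls 3 and 5 lay below GC tumor 3, and so did parental groups. *Klk7* fell by 0.97 (SE 0.27, adjusted p 0.0334 in edgeR) in GR KO tumors, with a parental effect of 0.12 (adjusted p 0.889). That call ended without any 1 of GR KO control 1 and 2 and GR KO GC 1, 4 and 5 (adjusted p up to 0.107), or with the GR KO groups fitted alone.

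*Fcgbp* and *Tmprss11g* were singled out after their values were seen. *Fcgbp* encodes a mucin-like protein that binds the Fc part of IgG and is best known from mucosal epithelia. *Fcgbp* stood at 23.9, 27.4, 32.7, 23.8 and 20.1 CPM in parental control tumors and at 3.62, 5.97, 5.66, 4.92 and 4.73 CPM with GC. For *Fcgbp*, GR KO controls had 67.2, 43.4, 43.0, 89.5 and 29.1 CPM and GR KO GC tumors 3.48, 7.55, 6.11, 0.636 and 3.18 CPM. Controls and GC tumors were separated in both genotypes. *Fcgbp* fell by 2.36 (SE 0.40, adjusted p 0.00355 in edgeR with BH) in parental and by 3.70 (SE 0.42, adjusted p 3.3e-05) in GR KO tumors, and no left-out tumor ended either call. Of the 50-base words in its last 500 bases, 34.0% also occur in *9530053A07Rik*, so reads may be split between these genes. *Tmprss11g*, a transmembrane serine protease, stood at 2.36, 1.92, 3.50, 2.33 and 12.1 CPM in parental controls and 0.408, 0.105, 0.751, 0 and 0.114 CPM with GC. GR KO tumors had 4.40, 2.93, 7.45, 3.44 and 1.29 CPM in controls and 2.27, 1.46, 2.07, 1.43 and 0.999 CPM with GC. *Tmprss11g* fell by 3.96 (SE 0.78, adjusted p 0.0115 in edgeR) in parental tumors, and without parental control tumor 5 the fold change was -3.14 and the adjusted p 0.0695. Without parental GC tumor 3 the fold change was -4.76. DESeq2 did not call it. Its GR KO effect was -1.24 (adjusted p 0.273). Several of its values are at or under 3 counts, which correspond to 0.114 to 0.193 CPM in tumors.

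**Figure D3:**
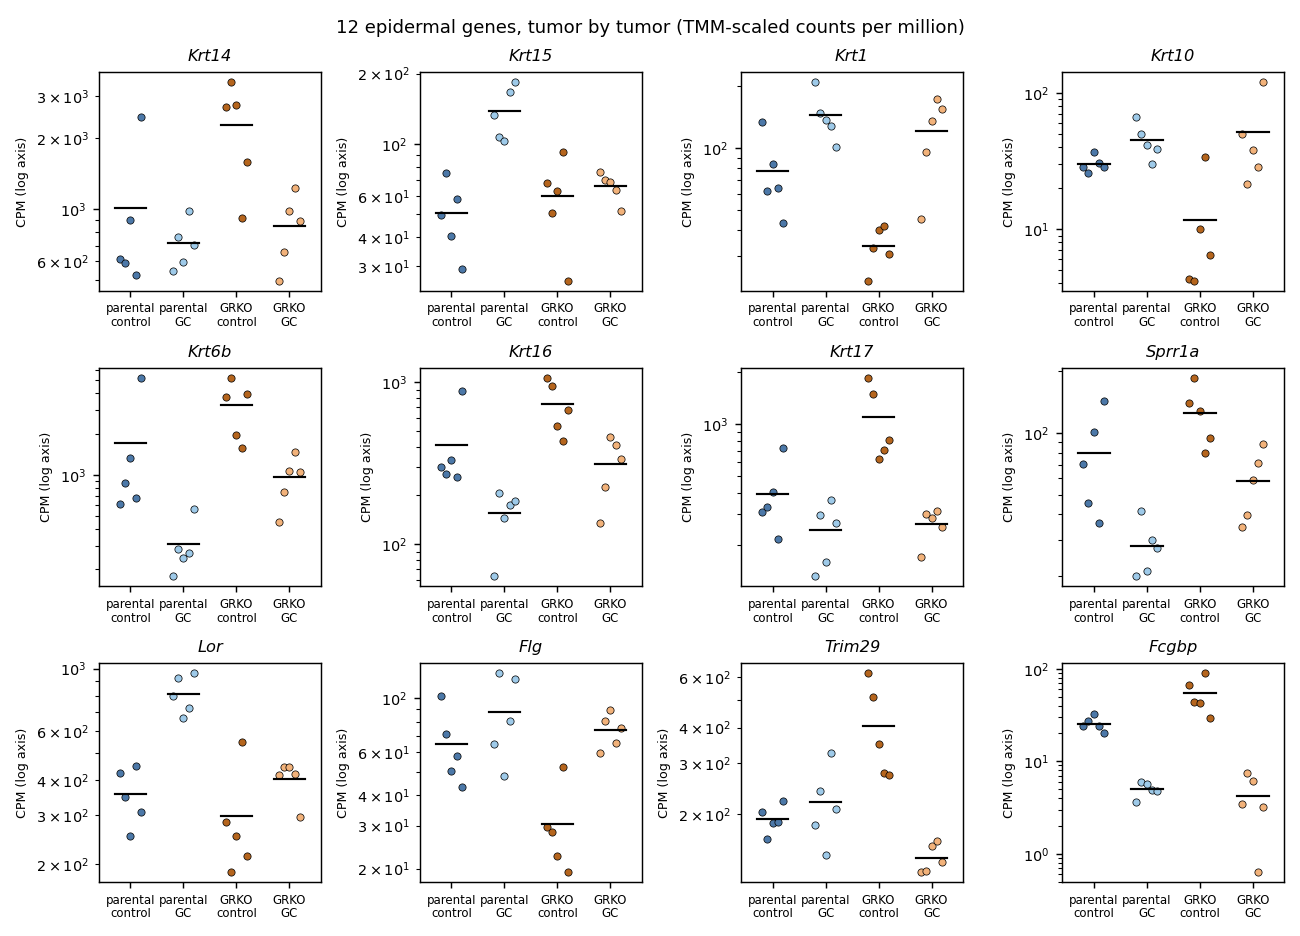
CPM of 12 members in each of the 20 tumors on a log axis that differs between panels, 1 point per tumor, with a bar at the mean of each group of 5. Krt6b, Krt16, Krt17, Sprr1a and Fcgbp are lower with GC on average, and Krt1 and Krt10 higher.

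Single comparisons of 5 tumors with 5 were also run as exact, two-sided permutation tests on log2(CPM + 1), for the 14 members chosen by rule and *Fcgbp*, 60 tests in all. The smallest p that 252 divisions allow is 0.00794, and 18 tests reached it, each a comparison in which the groups do not overlap. After BH over the 60 it becomes 0.0265. All 15 had been called by edgeR on the same values, in at least 1 tumor comparison, so these tests are no independent evidence.

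The remaining 20 tested members were called by edgeR in no tumor comparison, although DESeq2 called *Sfn* in parental tumors and *Pkp3* in GR KO tumors and for the difference. They are *Krt5*, *Trp63*, *Krt77*, *Calml3*, *Krtdap*, *Krt79*, the desmosome genes besides *Dsp*, *Ivl*, *Lce1a1*, *Tgm1*, *Tgm3*, *Ovol1*, *Grhl3* and *Sfn*. Their mean levels ran from 0.847 to 277 CPM. Their GC effects ranged from -1.66 to 1.45 in parental tumors (smallest adjusted p 0.120 in edgeR) and from -2.19 to 0.31 in GR KO tumors (0.0734). At the low end, *Tgm1* and *Grhl3* were at 0 in at least 1 tumor.

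Without the drug, 4 of 38 members differed between the genotypes (2.25% of all genes). *Krt17* was higher by 1.48 (SE 0.34, adjusted p 0.0289 in edgeR with BH) and *Trim29* by 1.07 (SE 0.23, adjusted p 0.0252), while *Krt1* was lower, at -1.21 (SE 0.31, adjusted p 0.0422), and *Flg* too, at -1.09 (SE 0.29, adjusted p 0.0448). Each of these calls ended without any 1 of 5 to 12 tumors, with adjusted p up to 0.0898 for *Krt17*, 0.0729 for *Trim29*, 0.116 for *Krt1* and 0.113 for *Flg*. With the replicate block *Krt1* and *Flg*, and with the compared groups alone *Krt17* and *Flg*, were not called. For *Trim29* and *Krt1* the 5 tumors of each genotype did not overlap, as for 309 higher and 315 lower of all 15919 genes. DESeq2 called 7 (1001 of all genes). The count is unstable: it was 0 without any 1 of parental control 2, 3 and 4 and GR KO control 1 and 2, 1 without parental control 1, 2 without GR KO control 3 or 5 or GR KO GC 3, 7 without parental control 5 and 8 without GR KO control 4. With the number of detected genes as a covariate it was 0 (51 of all genes), while 15 members have p under 0.05 without it (3180 of all genes). Centred within each group, the same covariate gave 7 (1734 of all genes).

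Between the genotypes with GC, 1 of 38 members was called (0.634% of all genes), *Sbsn*, lower in GR KO tumors at -0.83 (SE 0.19, adjusted p 0.0350 in edgeR with BH) and without overlap of the 5 tumors a side. *Lor* (at -1.01, adjusted p 0.0514) and *Krt15* (at -1.07, adjusted p 0.0713) did not overlap either and were not called, and neither was *Tmprss11g* (at 2.53, adjusted p 0.141), which lay higher in all 5 GR KO GC tumors. Of all 15919 genes, 244 higher and 368 lower did not overlap. DESeq2 called these 4 (293 of all genes). The count was 0 without any 1 of parental GC 2, 4 and 5 or of the 5 GR KO GC tumors, 2 without parental control 5 or GR KO control 2 or 5, and 3 without GR KO control 4. Left out, those tumors took the adjusted p of *Sbsn* up to 0.120, and with the compared groups alone *Sbsn* was not called. A fold minimum of 2 gave 0, and 15 members had p under 0.05 (1816 of all genes).

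The difference between the GC effects was called for 1 of 38 members (0.195% of all genes), *Trim29*, at 1.72 (SE 0.32, adjusted p 0.0330 in edgeR with BH), parental minus GR KO. DESeq2 called 7 (784 of all 15919 genes), adding *Krt15*, *Sbsn*, *Krt17*, *Dsp*, *Pkp3* and *Klk7*. So *Krt14* or *Krt10*, called in GR KO tumors and not in parental ones, are not shown to respond differently there (adjusted p 0.334 and 0.198). The count was 0 without any 1 of parental control 1, 3 and 4, parental GC 2, 4 and 5, GR KO control 1 and 2 and GR KO GC 1, 3 and 5, where the adjusted p of *Trim29* reached 0.0840. It was 2 without parental GC 1 or 3 or GR KO control 5, and 4 without GR KO control 4. With the number of detected genes as a covariate it was 0 (15 of all genes), and 16 members have p under 0.05 without it (3192 of all genes). Centred within each group, that covariate gave 7 (1648 of all genes).

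The summed level of the members varied tumor by tumor. Summed over the 39 members, parental controls had 5532, 5601, 6802, 5199.6 and 15222 CPM and parental GC tumors 5093, 7099, 5081, 6178 and 6536 CPM. GR KO controls had 16182, 18059.6, 10471, 9255 and 11682 CPM and GR KO GC tumors 4329.8, 5564, 6954, 7188 and 6177 CPM. Parental groups overlapped, and all GR KO controls lay above all GR KO GC tumors. The log2 ratio of the group means, which was not tested, was -0.36 in parental tumors and 0.05 without parental control tumor 5, so that its sign rests on that sample. In GR KO tumors it was -1.12, and between -1.22 and -0.98 with any 1 tumor left out. The roles did not share in it alike: from GR KO control to GR KO GC tumors the mean sum went from 6608 to 2223 CPM in the wound and follicle keratins, from 768 to 739 CPM in the suprabasal layers and from 632 to 661 CPM in the cornified envelope. It went from 2512 to 1050.3 CPM in the basal layer, from 1404 to 761 CPM in the desmosome and from 1205 to 608 CPM in the regulators, proteases and others. In parental tumors the mean sum went from 759 to 1059 CPM in the suprabasal layers and from 645 to 1051 CPM in the cornified envelope. The regulators, proteases and others went from 691 to 915 CPM there, and the wound and follicle keratins from 3301 to 1070 CPM. The parental basal layer went from 1250 to 965 CPM and the desmosome from 1025 to 937 CPM. These parental control means include control tumor 5, which was far above the rest in the basal layer, the wound and follicle keratins and the desmosome. By the median, the parental basal layer went up, from 777 to 928 CPM. The median went from 964 to 868 CPM in the desmosome and from 1920 to 1236 CPM in the wound and follicle keratins. Relative to library totals without TMM factors, the ratios were -0.39 and -0.82.

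To see which genes go with *Krt14* inside a group, each gene was fitted on the log2 level of this keratin, centred within its group, over the 20 tumors. A slope of 1 means that a gene doubles when *Krt14* doubles. Besides *Krt14*, 8 of 37 members had a slope called at an adjusted p under 0.05, all positive (0.289% of all genes called upward) and 0 negative (0.239% of all genes called downward). They were *Krt6b* (1.07), *Krt6a* (1.03), *Sprr1b* (0.95), *Krt16* (0.81), *Sprr1a* (0.74), *Krt17* (0.68), *Pkp1* (0.47) and *Perp* (0.37). The other 3 basal members had slopes of -0.045 (*Krt5*), -0.11 (*Trp63*) and -0.31 (*Krt15*), none of them called. A slope on *Krt14* is therefore not a slope on the basal layer as a whole. Of the other lists, the neutrophil marker *S100a8* was called too (1.74, adjusted p 0.0263), *S100a9* had 1.58 (adjusted p 0.0579), and *Flg2* was called with a negative slope (-1.09, adjusted p 0.0458). The 10 other genes with the smallest p included *Sprr2d* (1.90), *Lce3d* (1.31), *Lce3f* (1.17), *Klk6* (1.16) and *Slpi* (0.84), also made by stressed epithelia, with positive slopes. *Csf2ra* (-1.87), *Ncam1* (-0.82), *Creb5* (-0.77), *Baz1a* (-0.66) and *Arhgap30* (-0.91) had negative ones. The count was 5 without parental control 4, GR KO control 4 or GR KO GC 1, where *Krt17*, *Pkp1* and *Perp* were not called (adjusted p up to 0.107 for *Krt17* and 0.0773 for *Pkp1*), and *Perp* was lost without any 1 of 17 tumors (up to 0.233).

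*Krt5*, the partner of *Krt14*, was tried in its place. On *Krt5*, 5 of 37 members had a positive slope that was called, *Krt10*, *Krt77*, *Dsg1a*, *Dsc3* and *Ivl* (11.6% of all genes called upward), and 1 a negative one, *Krt79* (9.07% of all genes called downward), so that the upward count is near that of genes at large. None of the 8 members called on *Krt14* was called on *Krt5*, and the slopes of *Krt17* and *Perp* turned to -0.14 and -0.0053. The number of detected genes, fitted in the same way, was called for 3140 genes and for 8 members, 4 in each direction. Among the members called downward were *Krt14* itself (adjusted p 0.0496 in edgeR) and *Krt17* (adjusted p 0.0136). The part of library complexity in the *Krt14* and *Krt5* slopes was not tested.

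Beyond the members, 57 other epidermal genes were listed, and 52 could be tested. Averaged over genotypes, 3 rose (1.95% of all genes) and 5 fell (2.32% of all genes), with a median of -0.17 against 0.02 over all genes. *Krt78*, *Flg2* and *Hrnr* rose by 1.34, 1.29 and 0.66, and the gap junction genes *Gjb2* and *Gjb6* fell by 2.09 and 1.85 (adjusted p 0.00446 and 0.0215 in edgeR). Of the 28 differentiation genes among the 52, 3 rose and 2 fell averaged, with a median of -0.01. In GR KO tumors 7 of 52 fell (3.71% of all genes) and 0 rose (2.71% of all genes) by edgeR (9 lower by DESeq2). Of these 7, 6 were differentiation genes, among them *Evpl* (envoplakin), which fell by 1.39. In parental tumors edgeR called 1 (0.779% of all genes), *Gjb2*, which fell by 3.00. There 18 of the 52 had p under 0.05 in edgeR (2249 of all genes), and DESeq2 called 4 higher and 2 lower (376 of all genes). Of 15 epidermal cytokine and antimicrobial genes 10 were tested, and *Il19* fell by 2.35 averaged (adjusted p 0.0449).

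Markers of other cell types moved beside the members. The 6 neutrophil markers summed to 169, 608, 822, 195 and 2113 CPM in parental controls and 152, 137, 268, 115 and 291 CPM with GC. GR KO tumors had 626, 991, 472, 300.3 and 1201 CPM in controls and 242, 110.4, 385, 349 and 209 CPM with GC. Parental control tumor 5, the sample with the most *Krt6b* of its group, was the highest of all 20. *S100a8* and *S100a9*, which stressed keratinocytes also make, and *Mmp9* fell when averaged, 3 of 6 markers (2.32% of all genes), and 2 of 6 fell in parental tumors (0.345% of all genes). None was called by edgeR in GR KO tumors, where 2 had p under 0.05 and DESeq2 called 0. The most abundant was *Mmp9* or *S100a8*, and *Cxcr2* was at 0 in 3 of the 20 tumors. The 7 dermal fibroblast markers, led by *Col1a1*, *Col1a2* or *Col3a1* and with none at 0, summed to 6682, 7330.4, 6866, 7385 and 6999 CPM in parental controls and 10686, 8305, 10656, 7705 and 10707 CPM with GC. In GR KO tumors they came to 3574, 3902, 4467, 6519.9 and 5056 CPM in controls and 9891, 8061, 11278, 7288 and 11077 CPM with GC, and 4 of 7 rose with GC there (2.71% of all genes). Their part in the members' results was not tested.

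Hair follicle markers were patchy, with 0 of 20 tested called by edgeR in either genotype (1 and 0 with p under 0.05, and 0 by DESeq2). Over all genes edgeR called 0.779% in parental and 6.42% in GR KO tumors. The hair follicle markers summed to 586, 17.5, 228, 254 and 18.4 CPM in parental controls and 6.89, 75.8, 91.9, 3.25 and 5.30 CPM with GC. GR KO tumors had 309, 61.4, 4.17, 10.3 and 11.6 CPM in controls and 8.03, 12.6, 8.002, 310.4 and 11.5 CPM with GC. In the 10 tumors with the lowest sums the most abundant was *Lgr5*, with 11 to 20 of the 23 at 0, against 2 to 8 in the other 10. Averaged over genotypes, 2 of 8 sebaceous gland markers rose (*Far2* and *Cidea*), 1 of 7 adipocyte markers fell (*Cfd*), 1 of 6 melanocyte lineage markers fell (*Ednrb*), and 0 of 7 leukocyte markers and 0 of 3 simple epithelium keratins were called by edgeR (2 and 1 with p under 0.05, and 0 by DESeq2). In that average 1.95% of all genes were called higher and 2.32% lower. Counts of 1 or 2 in such short lists are not read as results about a cell type. Of the 10 striated muscle markers 1 rose averaged (*Ttn*). Their effects lay on opposite sides of 0 by genotype. In parental tumors 1 was called higher (0.433% of all genes) and 9 of 10 had effects above 0. In GR KO tumors 2 were called lower (3.71% of all genes) and 8 of 10 had effects below 0 (DESeq2 called 1 in parental and 3 in GR KO tumors). Led by *Acta1* or *Ttn* and with none at 0, the muscle markers summed to 597, 478, 478, 456 and 456 CPM in parental controls and 796, 472, 445, 658 and 563 CPM with GC, and in GR KO tumors to 638, 617, 767, 694 and 440.3 CPM in controls and 402, 501, 569.5, 371 and 389 CPM with GC, and their part in the members' results was not tested. Of 8 glucocorticoid-responsive genes, 6 rose in parental (0.433% of all genes) and 5 in GR KO tumors (2.71% of all genes), with *Tsc22d3* higher by 2.34 and 1.77.

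Many members are neighbours on the genome (GRCm38, positions for 38 of 39 from a GENCODE annotation). The reads were counted on an Ensembl annotation instead. *Flg* has no position in the GENCODE annotation, and its promoter below was taken from RefSeq by symbol. The type I keratins *Krt10*, *Krt15*, *Krt14*, *Krt16* and *Krt17* lie within 876 kb of chromosome 11, and of these 5, averaged over genotypes, 2 rose and 3 fell. On chromosome 15, *Krt6b*, *Krt6a*, *Krt5*, *Krt1*, *Krt77* and *Krt79* span 264 kb, with 1 higher and 2 lower. On chromosome 3, *Lor*, *Sprr1b*, *Sprr3*, *Sprr1a*, *Ivl* and *Lce1a1* of the epidermal differentiation complex span 568 kb, again with 1 higher and 2 lower. *Flg*, called higher when averaged, has its promoter on chromosome 3 as well and is not in this count. Neighbours therefore moved in opposite directions in each cluster. Of the 50-base words in the last 500 bases of each transcript, 9.53% are shared between *Krt14* and *Krt17*, 16.9% of *Krt16* with *Gm11597*, 25.9% of *Sbsn* with *Tmem147os* and 20.1% of *Lce1a1* with *Lce1j*. *Krt6a* ends over *Gm49428* on the opposite strand, and the strand setting of the counting is not given in the sources used here.

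RefSeq promoters (GRCm38.p6, 250 bases before to 50 after the start) were at hand for 22 members, 23 promoters in all. 3 motifs were searched on both strands. TGANTCA, read by AP-1, a factor of stressed keratinocytes, is in 7 of the 23 and in 7.81% of 32841 promoters. TATAAA, the TATA box, is in 9 of the 23 and in 13.6% of all. ACANNNTGT, the core of the receptor's palindromic element, is in 1 of the 23, *Sprr3*, and in 6.85% of all. Shown 5′ to 3′ are members that GC moved in opposite directions, *Lor*, *Flg* and *Krt10* upward and *Sprr1a*, *Sprr1b* and *Fcgbp* downward, with TGANTCA and TATAAA in capitals. All but *Krt10* and *Fcgbp* hold TGANTCA, and all but *Fcgbp* TATAAA, whichever way they moved. A match of letters is a description and not a binding site.
Lor (chr3:92083093-92083392, minus strand): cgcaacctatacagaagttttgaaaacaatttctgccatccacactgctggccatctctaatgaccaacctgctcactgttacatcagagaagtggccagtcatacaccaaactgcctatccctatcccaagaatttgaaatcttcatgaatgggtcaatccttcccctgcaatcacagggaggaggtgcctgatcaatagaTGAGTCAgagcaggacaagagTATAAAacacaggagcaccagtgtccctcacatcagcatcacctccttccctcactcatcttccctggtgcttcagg
Flg (chr3:93273296-93273595, plus strand): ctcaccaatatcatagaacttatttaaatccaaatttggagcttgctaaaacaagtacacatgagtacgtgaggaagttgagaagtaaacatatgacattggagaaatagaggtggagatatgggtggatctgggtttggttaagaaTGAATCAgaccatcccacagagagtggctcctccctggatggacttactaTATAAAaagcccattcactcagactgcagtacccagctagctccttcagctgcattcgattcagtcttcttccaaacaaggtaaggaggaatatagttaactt
Krt10 (chr11:99389315-99389614, minus strand): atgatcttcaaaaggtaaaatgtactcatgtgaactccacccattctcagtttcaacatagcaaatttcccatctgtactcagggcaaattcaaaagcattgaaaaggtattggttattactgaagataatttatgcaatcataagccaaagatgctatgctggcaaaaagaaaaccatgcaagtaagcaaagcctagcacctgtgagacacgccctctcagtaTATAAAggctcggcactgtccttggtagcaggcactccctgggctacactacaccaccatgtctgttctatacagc
Sprr1a (chr3:92485832-92486131, minus strand): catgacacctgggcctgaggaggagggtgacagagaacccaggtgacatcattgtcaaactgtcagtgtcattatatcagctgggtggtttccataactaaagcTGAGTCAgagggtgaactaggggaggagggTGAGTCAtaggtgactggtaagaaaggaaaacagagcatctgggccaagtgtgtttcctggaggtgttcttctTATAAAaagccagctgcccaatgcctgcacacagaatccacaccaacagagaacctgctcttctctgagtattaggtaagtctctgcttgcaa
Sprr1b (chr3:92438730-92439029, minus strand): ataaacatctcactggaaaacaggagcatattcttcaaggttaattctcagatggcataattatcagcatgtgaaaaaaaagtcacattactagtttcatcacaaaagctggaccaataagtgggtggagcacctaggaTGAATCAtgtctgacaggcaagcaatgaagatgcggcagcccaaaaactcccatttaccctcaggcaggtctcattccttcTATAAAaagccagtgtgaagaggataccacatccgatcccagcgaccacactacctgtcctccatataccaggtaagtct
Fcgbp (chr7:28070986-28071285, plus strand): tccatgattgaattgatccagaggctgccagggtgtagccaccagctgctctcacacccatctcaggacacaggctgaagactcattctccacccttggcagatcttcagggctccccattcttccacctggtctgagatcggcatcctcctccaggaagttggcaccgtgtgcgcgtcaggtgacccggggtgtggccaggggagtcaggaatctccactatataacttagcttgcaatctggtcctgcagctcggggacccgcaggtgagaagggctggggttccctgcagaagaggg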

How the data were processed

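Raw reads per gene, deposited by the authors as counts, were used for 20 tumors and 11 cultures. Per the methods, 3′ reads were trimmed with Trim Galore, aligned with STAR to GRCm38 (mm10) and counted with featureCounts on Ensembl annotation. Tumors and cultures were fitted apart in edgeR 4.0.16 (R 4.3.3) with TMM scaling and quasi-likelihood tests, on genes with at least 0.5 CPM in at least 3 samples (15919 in tumors, 12525 in cultures). DESeq2 1.42.0 served as the other tool. Tables and figures were made with Python 3.11.15, numpy 2.4.6, pandas 2.3.3 and matplotlib 3.10.9. 3 counts equal 0.114 to 0.208 CPM. The members, and the lists of other epidermal genes and of markers of other cell types, were chosen with earlier results of these data known. Named tumor by tumor were members called in any tumor contrast and the most abundant of each role, up to 14, the lowest mean CPM dropped first. Other lists name called genes and the most abundant, and the slopes the 10 other genes with the smallest p. Calls were tested on simulated data, and 71 model fits covered other scalings, filters, tools, blocks and each sample left out. Of simulated GC effects in tumors, 15.5% were recovered at a log2 size of 1 and 76% at 2. A member that was not called may therefore still have changed.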

Additional observations from a re-analysis of the deposited data

Results flagged for a closer look

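Within groups of 5 tumors, 15 of 144 groups of values looked at held 1 tumor far from the other 4, by a gap of over 0.71 of the group's range. Chance gives about 1 in 20 for independent values. The sums contain the single genes, so several flags of 1 tumor are not separate, and the count is not read against chance. Parental control tumor 5 was far above the other parental controls in Krt14 (2442 CPM), Krt6b (5196 CPM), Krt16 (878 CPM) and in the summed CPM of the basal layer (2757), the wound and follicle keratins (8664), the desmosome (1338) and all members (15222). Parental GC tumor 5 stood apart in Krt6b (559 CPM) and parental GC tumor 2 in Klk7 (614 CPM). Lor was far above the rest in GRKO control tumor 4 (545 CPM) and far below in GRKO GC tumor 5 (294 CPM). Summed hair follicle markers stood apart in GRKO control tumor 1 (309 CPM) and GRKO GC tumor 4 (310.4 CPM), striated muscle markers in parental control tumor 1 (597 CPM) and leukocyte markers in parental control tumor 2 (2075 CPM).

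Among the listed genes, edgeR called a difference of GC effects between parental and GRKO tumors (0.195% of all genes) for Trim29 (1.72 on the log2 scale, parental minus GRKO), Cdsn (1.69), Tnnc2 (1.89) and Mt1 (1.90). The Trim29 call ended without any 1 of 11 tumors (edgeR adjusted p up to 0.0840) and with the number of detected genes as a covariate.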

How the results depend on the processing

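Of 1285 results for single members under other settings, 1100 kept their direction and their side of the threshold, 183 were no longer called and 2 turned. With Krt5 in place of Krt14, the slopes of Krt17 and Perp turned to -0.14 and -0.0053. The cause was not tested.

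For the difference of GC effects, 1 member was called. DESeq2 gave 7, DESeq2 size factors 2, at least 10 counts in every tumor 2 and the replicate block 2. GRKO against parental control tumors gave 4, and 7 with DESeq2, 2 with the replicate block and 2 with the compared groups alone. GRKO against parental GC tumors gave 1, and 0 with a fold minimum of 2, 4 with DESeq2, 2 with DESeq2 size factors, 2 with at least 10 counts in every tumor, 4 with the replicate block and 3 with the compared groups alone. A fold minimum of 2 took the averaged GC effect from 16 to 10. The cause was not tested.

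Chosen after seeing the data were library complexity (genes seen after drawing to equal depth) as a covariate, uncentred and centred within each group, and leaving out each culture. Uncentred, the covariate took the GC effect in GRKO tumors from 12 to 6, the difference from 1 to 0, GRKO against parental control from 4 to 0 and GRKO against parental GC from 1 to 4. Centred, the last 3 gave 7, 7 and 3. The cause was not tested.

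Leaving out 1 tumor at a time gave 2 to 7 members for the GC effect in parental tumors, 7 to 13 in GRKO tumors, 0 to 4 for the difference, 0 to 8 for GRKO against parental controls, 0 to 3 with GC, 13 to 16 averaged and 5 to 8 for the Krt14 slope. Cultures left out 1 at a time gave 0 to 0 in both lines by edgeR, with 1 member at p under 0.05 in each line and 0 called by DESeq2 in the full set. The log2 ratio of the summed members ran from -0.47 to 0.05 in parental tumors, -1.22 to -0.98 in GRKO tumors and -0.79 to -0.53 averaged.

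Samples with the same number share only a number. With it as a replicate block, 7 members were called in parental tumors, 12 in GRKO tumors and 15 averaged. Same-number pairs had a mean correlation of residuals of 0.0583 in tumors (30 pairs) and 0.0198 in cultures (15 pairs).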
